A study of Homo sapiens with 6 samples.

Results

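Nuclear pore proteins and karyopherins were compared between HT29 cultures given a cocoa extract and their controls. HT29 is an established human line from a colorectal adenocarcinoma. Of 19775 genes measured, 57 belonged to this group, with 160 of the 54613 probe sets. They were taken by name, under a rule set with earlier results of these data known. The rule takes genes whose symbol begins with NUP and a number, and the numbered importins, exportins and transportins (KPNA, KPNB, IPO, XPO and TNPO). It also takes TPR, SEH1L, AAAS, NDC1, RAE1, RANBP2, RAN, RANGAP1 and RCC1. Of the 57, 54 are protein-coding. The others are the long non-coding RNAs NUP50-DT and NUP133-DT and the pseudogene NUP210P1.

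The cocoa group held 3 cultures exposed for 24 h to 500 µg of a polyphenolic cocoa extract, for which no volume is given. The control group held 3 cultures that the protocol describes as given saline and the sample names as untreated. All 6 came from 300000 plated cells of the same line in F12 medium with serum, and each was read on its own Affymetrix U133 Plus 2.0 array. Expression is on the log2 scale with the median over all arrays subtracted from every probe set, so the values give differences between arrays and no levels. Precision is limited by the number of arrays, and nothing in the sources used here says whether the cultures were grown on separate days, so the spread behind each p-value may be technical. In bulk RNA, fewer cells of a type and less RNA per cell cannot be told apart.

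Traffic between nucleus and cytoplasm passes through nuclear pore complexes, rings of many copies of nucleoporins set in the nuclear envelope. An outer and an inner ring form the scaffold, nucleoporins rich in phenylalanine-glycine (FG) repeats fill the channel, and filaments and a basket extend to either side. Karyopherins carry cargo through the channel: importins bind nuclear localisation signals, exportins bind export signals, and both are switched by the small GTPase RAN, whose GTP-bound form is made at chromatin by RCC1 and hydrolysed in the cytosol with RANGAP1. In dividing epithelial tumour cells the pore is rebuilt after each mitosis.

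The members that fell with cocoa did so by modest amounts. They lay in the structural rings, the channel, the membrane anchors, the cytoplasmic face, the basket and the Ran cycle as well as among single carriers. The anchors, the cytoplasmic face and the basket held 1 each. Of the 57 members, 17 fell and 0 rose at a limma adjusted p below 0.05 (called, below), and the other 40 did not pass. Among all genes 6.12% were called lower and 7.36% were called higher. At an unadjusted limma p below 0.05, 26 members were lower and 1 was higher, against 13.8% and 13.4% of all genes. The largest fall was that of NUP160 at 1.43-fold, the smallest called one that of NUP35 at 1.20-fold, so that no member reached 1.5-fold. The median log2 difference over the 57 members was −0.15, against −0.012 over all genes, and 48 of the 57 differences were below 0. In 29 members every cocoa array lay below every control array, and in 1, KPNA5, every cocoa array lay above them; among all genes these shares were 17.0% and 15.4%. The count of 17 lower members was 6, 5 and 8 without control array 1, 2 or 3 and 11 and 9 without cocoa array 2 or 3, and it was 18 without cocoa array 1. The share of all genes called lower also fell, to 2.89%, 2.35% and 3.87% without control array 1, 2 or 3 and to 3.59% and 3.61% without cocoa array 2 or 3. Without cocoa array 1 it was 7.20%.

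**Figure D1:**
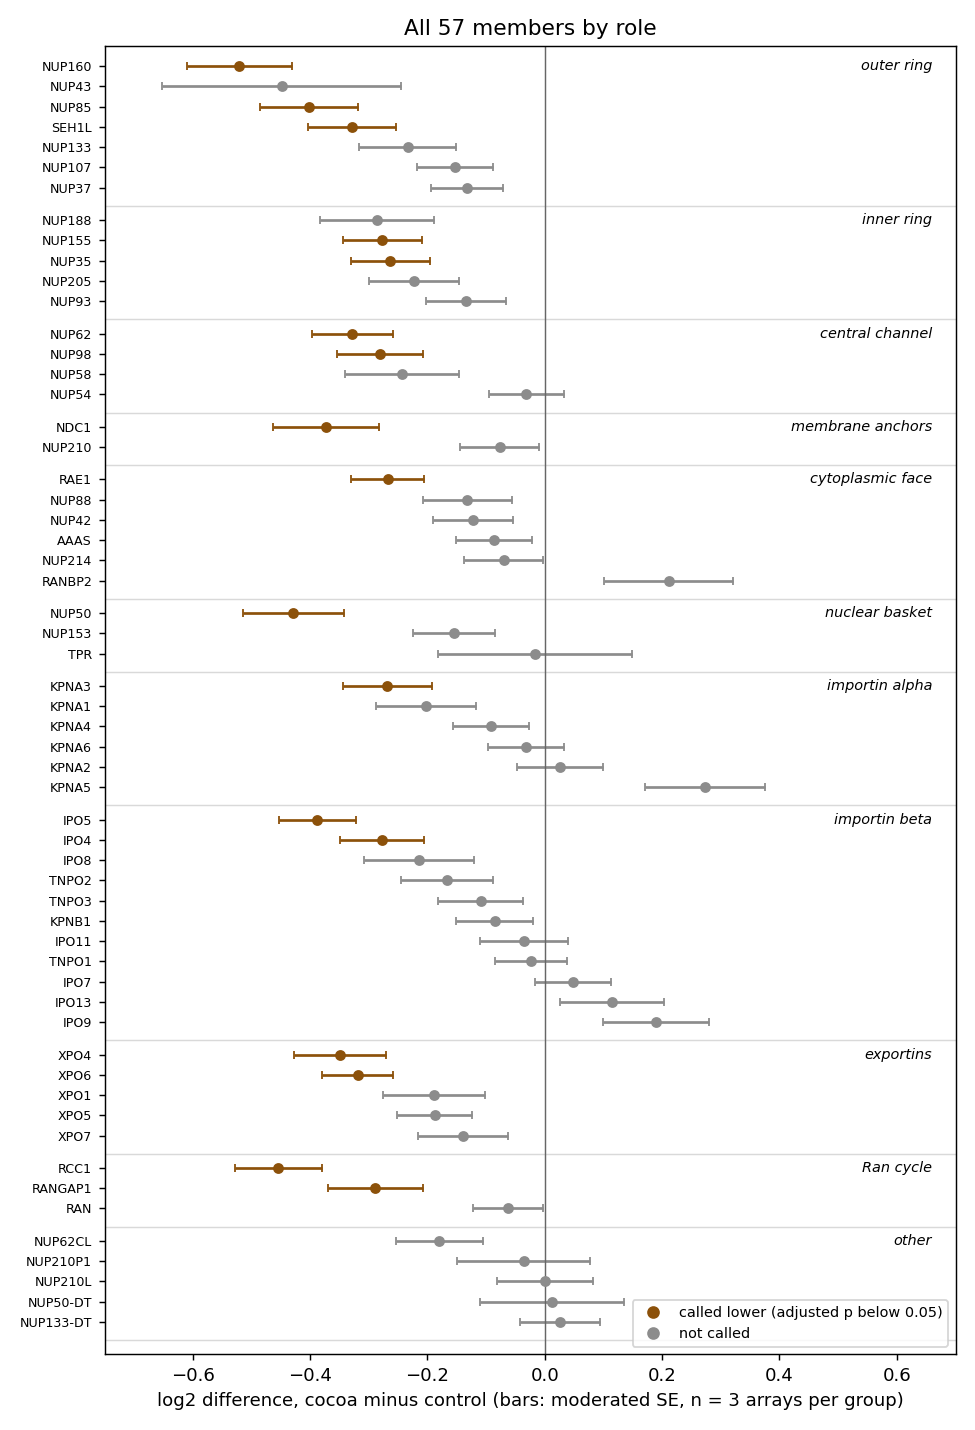
Log2 difference (cocoa minus control) of each of the 57 members, grouped by role. Points are differences of group means, bars are moderated standard errors (n = 3 arrays per group), and brown points are the 17 members called lower, which lie between −0.52 and −0.26; no member was called higher, and KPNA5 and RANBP2 have the highest positive values (0.27 and 0.21).

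The promoters of NUP160, RCC1, NUP50 and IPO5 are shown because their calls held in each fit without 1 array. Each is the 250 bases before the first listed gene start in RefSeq (GRCh38.p14), 5′ to 3′ on the gene's strand, with matches to the motifs named below in capitals. The windows are chr11:47848351-47848600 (minus strand) for NUP160, chr1:28505793-28506042 (plus strand) for RCC1, chr22:45163675-45163924 (plus strand) for NUP50 and chr13:97953425-97953674 (plus strand) for IPO5.
NUP160: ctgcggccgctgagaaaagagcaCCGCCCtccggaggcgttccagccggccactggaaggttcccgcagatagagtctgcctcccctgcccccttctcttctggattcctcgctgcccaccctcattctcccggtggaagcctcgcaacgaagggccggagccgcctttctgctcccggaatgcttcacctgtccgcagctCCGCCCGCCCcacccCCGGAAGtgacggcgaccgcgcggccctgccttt
RCC1: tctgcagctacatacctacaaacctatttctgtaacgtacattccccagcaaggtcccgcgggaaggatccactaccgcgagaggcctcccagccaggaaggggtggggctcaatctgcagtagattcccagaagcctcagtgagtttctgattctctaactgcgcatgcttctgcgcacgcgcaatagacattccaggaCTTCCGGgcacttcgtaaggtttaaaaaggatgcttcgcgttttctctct
NUP50: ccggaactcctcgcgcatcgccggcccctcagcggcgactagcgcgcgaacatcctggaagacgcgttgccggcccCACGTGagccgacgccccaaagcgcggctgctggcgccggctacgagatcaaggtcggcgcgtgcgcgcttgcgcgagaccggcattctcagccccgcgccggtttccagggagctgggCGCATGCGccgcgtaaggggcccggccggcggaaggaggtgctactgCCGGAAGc
IPO5: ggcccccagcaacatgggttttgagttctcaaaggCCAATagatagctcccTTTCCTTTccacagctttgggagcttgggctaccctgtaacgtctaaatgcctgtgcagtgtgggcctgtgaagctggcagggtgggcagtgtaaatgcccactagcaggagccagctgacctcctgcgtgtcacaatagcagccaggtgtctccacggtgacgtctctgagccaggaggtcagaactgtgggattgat

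Motifs were searched on both strands in windows from 250 bases before to 50 after each gene start, and overlapping matches were counted for each motif. A gene was counted if any of its windows held a match, so genes with more listed starts could match more often. NUP160, RCC1 and NUP50 have 2 windows each and IPO5 has 1. RefSeq windows were matched for 51 of the 57 members, among them all 17 that fell; KPNB1, KPNA4, KPNA5, NUP43, NUP210P1 and XPO7 had none in the table used. The ETS core CCGGAAG was found for 7 of the 17 called members (NUP160, RCC1, NUP50, IPO4, NUP35, SEH1L and XPO6) and for 15 of the 51, or 29.4%, against 12.2% of all 27305 genes with a window. In the printed promoters it lies 34 bases before the start of NUP160, 50 before that of RCC1 (on the other strand) and 8 before that of NUP50. The E-box CACGTG was found for 4 of the 17 and 19.6% of the 51 (8.78% of all genes). The NRF1 core CGCATGCG was found for 2 of the 17, NUP50 and NUP62, and 9.80% of the 51 (2.46% of all genes).

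The other motifs were counted in the same way, and no difference in share was tested for any motif. The CCAAT box was found for 6 of the 17 and 45.1% of the 51 (39.7% of all genes), and the GC box GGGCGG for 10 of the 17 and 56.9% (48.3%). The E2F forms TTTGGCGC and TTTCCCGC were found for 1 and 0 of the 17, and for 1.96% and 0% of the 51 (0.795% and 1.98% of all genes). The interferon regulatory factor motif AANNGAAA was found for 3 of the 17 and 17.6% of the 51 (26.7% of all genes). The E-box of RCC1 and the interferon regulatory factor motif of RCC1 and NUP160 lie in a window that is not printed above. A match describes letters in a window and is not a measured binding site. Member promoters were not compared with others of the same base composition.

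The role lists hold only genes that the naming rule takes. Among the 10 lists, the outer ring, or Y complex, had the lowest median, a log2 difference of −0.33 over 7 members. It is the scaffold part that is recruited first to chromatin when pores reassemble. SEC13 and AHCTF1 also belong to this complex but lie outside the rule. They were at −0.088 and −0.061 and not called, and how the lists rank with them added was not computed. Of the 7 listed members, 3 fell, 0 rose and 4 did not pass, and in 6 of them the groups did not overlap. NUP160, a large scaffold subunit with an ETS core in its promoter, had centred log2 values of −0.15, −0.49 and −0.32 in the cocoa arrays 1 to 3, against 0.20, 0.15 and 0.25 in the control arrays 1 to 3. All cocoa arrays lay below all control arrays, and the log2 difference was −0.52 (SE 0.090, limma adjusted p = 0.00571). This call was kept in each of the 6 fits without 1 array, with adjusted p from 0.00303 to 0.0250. NUP85, another arm of the Y, read −0.098, −0.31 and −0.38 in the cocoa arrays and 0.21, 0.11 and 0.098 in the controls, again without overlap. Its difference of −0.40 (SE 0.084, adjusted p = 0.0135) was lost only without control array 1 (adjusted p = 0.0569). SEH1L, a propeller-shaped subunit shared with a nutrient-sensing complex, was at −0.11, −0.35 and −0.16 with cocoa and at 0.13, 0.12 and 0.12 in controls, the lowest value being that of cocoa array 2. The difference of −0.33 (SE 0.075, adjusted p = 0.0203) did not pass without cocoa array 2 (0.0506) or without control array 1, 2 or 3 (0.0662, 0.0759 and 0.0605).

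The other 4 subunits on this list did not pass. NUP43, a propeller-shaped subunit, had a large difference that 1 array carried: the values were 0.042, −0.88 and −0.13 with cocoa and 0.034, 0.055 and 0.28 in controls. Cocoa array 2 stood far below the rest, cocoa array 1 lay within the control range, and the difference was −0.45 with an SE of 0.20 (adjusted p = 0.193). Without cocoa array 2 it was −0.17. The low value came from 1 probe set: in cocoa array 2 the probe sets of NUP43 read −1.74 and −0.030. Their differences over all arrays were −0.78 and −0.12. NUP133, the partner of NUP107 at the stem of the Y, had a difference of −0.23 (SE 0.082, adjusted p = 0.0976), and NUP107 and NUP37 read −0.15 and −0.13.

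In the inner ring 2 of 5 members fell, 0 rose and 3 did not pass, with a median log2 difference of −0.26 and all 5 differences below 0. NUP155, which links the ring to the membrane, had values of −0.084, −0.20 and −0.23 with cocoa and of 0.084, 0.13 and 0.093 in controls, so that cocoa array 1 lay closest to the controls. The difference was −0.28 (SE 0.067, adjusted p = 0.0246). NUP35, a small scaffold subunit of the same ring, fell by 0.26 (SE 0.067, adjusted p = 0.0306), with cocoa arrays at −0.11, −0.088 and −0.24 against 0.14, 0.088 and 0.12 in controls. Both calls were fragile: that of NUP155 held only without cocoa array 1 and was lost without each of the other 5 arrays (0.0671 to 0.107), and that of NUP35 was lost without cocoa array 3 or any 1 control array (0.0866 to 0.0992). NUP188, a large scaffold protein related to NUP205, had a difference as large as these, −0.29, with a wider error (SE 0.097, adjusted p = 0.0881). Its cocoa values were −0.057, −0.32 and 0.0047, against 0.048, 0.18 and 0.26 in controls, without overlap. NUP205 was at −0.22 (SE 0.077, adjusted p = 0.0923) and NUP93, the hub of this ring, at −0.13 (SE 0.069, adjusted p = 0.252).

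Of the 4 members of the central channel 2 fell, 0 rose and 2 did not pass (median −0.26), and all 4 are known as FG nucleoporins. NUP62, the core of the channel trimer, read −0.13, −0.16 and −0.19 with cocoa and 0.21, 0.22 and 0.066 in controls, with no overlap. It fell by 0.33 on the log2 scale (SE 0.068, adjusted p = 0.0134), a call lost without control array 1 (0.0565) or 2 (0.0715). NUP98, whose precursor also yields the scaffold protein Nup96, read −0.066, −0.19 and −0.22 with cocoa and 0.057, 0.10 and 0.21 in controls. Its groups were separated by less than those of NUP62, and the fall of 0.28 (SE 0.073, adjusted p = 0.0332) held only in the fit without cocoa array 1, with adjusted p from 0.0582 to 0.113 without any of the other 5. The partners of NUP62 in the trimer did not pass: NUP58 was at −0.24 (SE 0.098, adjusted p = 0.142) and NUP54 at −0.032 (SE 0.064, adjusted p = 0.819). Among the membrane anchors NDC1, a transmembrane nucleoporin needed for pore assembly, fell by 0.37 (SE 0.091, adjusted p = 0.0255). Its cocoa values were −0.049, −0.38 and −0.32, against 0.11, 0.17 and 0.087 in controls, so that cocoa array 1 stood well above the other cocoa arrays. The call was lost without each array except cocoa array 1 (0.0597 to 0.103). The other anchor, NUP210, had a difference of −0.077.

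On the cytoplasmic face 1 of 6 members fell and 0 rose. RAE1, an mRNA export factor that binds NUP98, was at −0.082, −0.10 and −0.17 in cocoa arrays and at 0.17, 0.15 and 0.12 in controls, a narrow spread within each group. The fall of 0.27 (SE 0.062, adjusted p = 0.0213) was lost without cocoa array 3 (0.0696) and without control arrays 1, 2 and 3 (0.0758, 0.0882 and 0.0523). RANBP2, the giant filament protein that binds RAN and sumoylated RANGAP1, had the only positive difference on this face, 0.21 (SE 0.11, adjusted p = 0.263). Its cocoa values of 0.075, 0.047 and 0.046 overlapped the controls, which spread widely at −0.41, −0.13 and 0.078. NUP88, NUP42, AAAS and NUP214 had differences from −0.13 to −0.070.

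In the nuclear basket 1 of 3 members fell, NUP50, and 0 rose (median −0.15). NUP50, which also helps to release cargo from importin alpha, read −0.13, −0.44 and −0.19 with cocoa and 0.16, 0.17 and 0.18 in controls. The controls lay within 0.02 of each other and all cocoa arrays were below them, giving a difference of −0.43 (SE 0.086, adjusted p = 0.0116) that held in all 6 fits without 1 array (0.00966 to 0.0494). NUP153, an FG nucleoporin that anchors the basket, was at −0.15 (SE 0.070, adjusted p = 0.193). TPR, the long coiled-coil protein of the basket strands, gave no direction: its values were 0.31, −0.30 and −0.046 with cocoa and −0.27, 0.0051 and 0.27 in controls, each group spanning almost the whole range, for a difference of −0.016 (SE 0.17).

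Over these 6 lists of pore proteins, 10 of 27 members fell and 0 rose, and 26 of the 27 differences were below 0 (median −0.23). The 22 karyopherins had a median of −0.12, with 5 lower, 0 higher and 17 not called. That the pore and carrier lists differ was not tested.

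**Figure D2:**
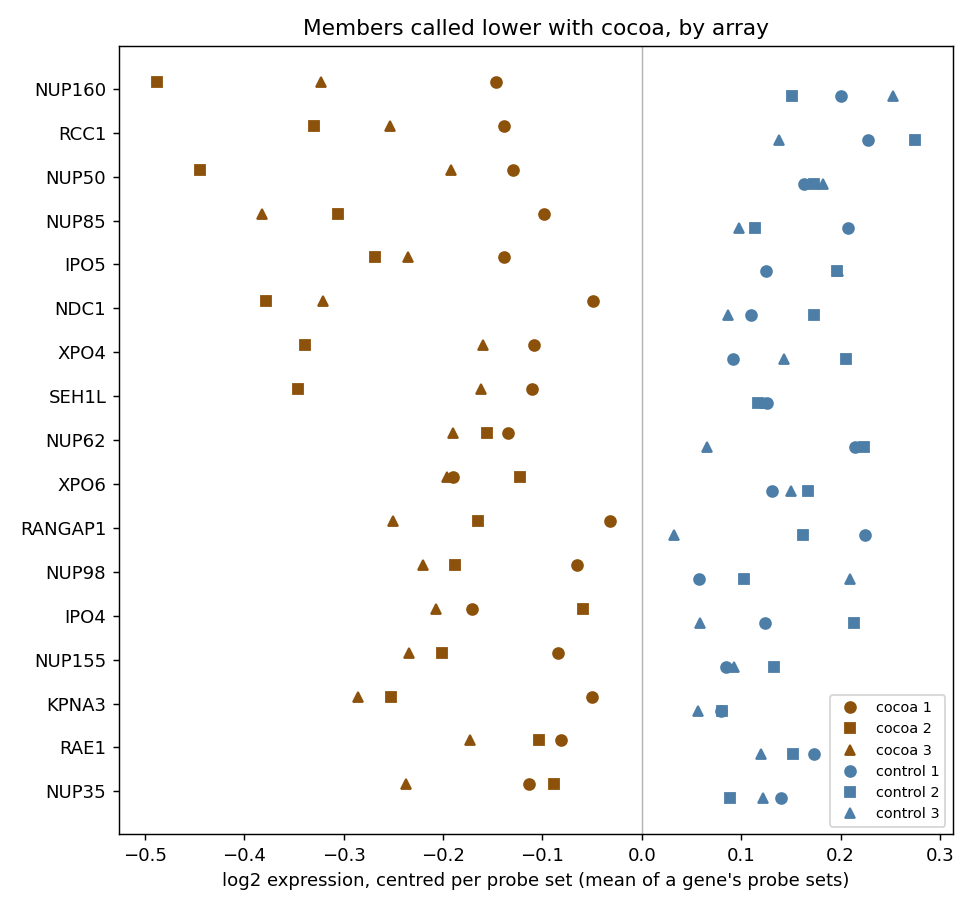
Centred log2 expression of the 17 members called lower, from the largest fall (NUP160, top) to the smallest (NUP35, bottom). Brown symbols are the 3 cocoa arrays, blue symbols the 3 control arrays, and symbol shape gives the array number. In every row all cocoa arrays lie left of 0 and all control arrays right of it. Centring on the median over all arrays favours this where groups do not overlap. Cocoa array 1 is often the cocoa array nearest to 0.

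Among the importins of the beta family, which carry cargo directly or through an adaptor, 2 of 11 fell, 0 rose and 9 did not pass, with a median of −0.086. IPO5, known for the import of ribosomal proteins and histones, read −0.14, −0.27 and −0.24 with cocoa and 0.13, 0.20 and 0.20 in controls. The groups were well apart, and the fall of 0.39 (SE 0.066, adjusted p = 0.00549) held without any 1 array (0.00633 to 0.0336). IPO4, which imports histones among other cargo, was at −0.17, −0.059 and −0.21 with cocoa and at 0.12, 0.21 and 0.059 in controls. Its fall of 0.28 (SE 0.072, adjusted p = 0.0333) was kept only in the fit without cocoa array 2 and lost in the other 5 (0.0502 to 0.145). KPNB1, the beta subunit of the classical import pathway, was not called: its difference was −0.086 (SE 0.065, adjusted p = 0.468), with cocoa arrays at −0.050, 0.022 and −0.12 and controls at 0.055, 0.021 and 0.028. IPO8 had −0.21 (adjusted p = 0.175; 0.0217 without cocoa array 1) and TNPO2, a transportin, −0.17 (adjusted p = 0.207). IPO9 had the highest value of this list, 0.19 (adjusted p = 0.220; 0.0490 without cocoa array 3). The other 5, TNPO3, IPO11, TNPO1, IPO7 and IPO13, lay between −0.11 and 0.11.

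The importin alpha adaptors, which hold the classical nuclear localisation signal, did not move together. Of 6 measured, 1 fell, 0 rose and 5 did not pass. KPNA3 read −0.050, −0.25 and −0.29 with cocoa and 0.079, 0.080 and 0.057 in controls, and its fall of 0.27 (SE 0.076, adjusted p = 0.0478) stood at the edge of the threshold. It was kept only without cocoa array 1 and lost without each of the other 5 arrays (0.106 to 0.149). KPNA1, another adaptor, had cocoa values of 0.032, −0.26 and −0.22 and control values of 0.011, 0.077 and 0.075. Cocoa array 1 lay within the controls, and the difference of −0.20 (SE 0.085, adjusted p = 0.162) passed only without that array (−0.29, adjusted p = 0.0247). KPNA5 was the only member whose groups were apart upward, at 0.29, −0.10 and 0.065 with cocoa and −0.30, −0.11 and −0.16 in controls, with a gap of under 0.01 between cocoa array 2 and control array 2. Its difference was 0.27 (SE 0.10, adjusted p = 0.119). KPNA2, an adaptor abundant in proliferating cells, differed by 0.026 (SE 0.073, adjusted p = 0.877), a value whose sign turned with the removal of control array 1 or cocoa array 2. KPNA4 and KPNA6 were at −0.091 and −0.032.

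Of 5 exportins 2 fell, 0 rose and 3 did not pass, and all 5 differences were below 0 (median −0.19). XPO4, which exports the translation factor eIF5A, read −0.11, −0.34 and −0.16 with cocoa and 0.091, 0.21 and 0.14 in controls. It fell by 0.35 (SE 0.078, adjusted p = 0.0179), a call lost without control array 2 (0.0844) or 3 (0.0534). XPO6, the exporter of actin with profilin, was even across arrays, at −0.19, −0.12 and −0.20 with cocoa and 0.13, 0.17 and 0.15 in controls. Its fall of 0.32 (SE 0.061, adjusted p = 0.00905) was lost only without control array 2 (0.0509). XPO1, the main exporter of proteins with leucine-rich signals, was not called, with −0.19 (SE 0.087, adjusted p = 0.203), cocoa values of 0.0082, −0.16 and −0.070 and control values of −0.054, 0.18 and 0.21. XPO5, which exports microRNA precursors, had −0.19 (SE 0.064, adjusted p = 0.0888), and XPO7 had −0.14.

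The regulators of the Ran cycle fell while RAN itself was not called. RCC1, the chromatin-bound exchange factor, read −0.14, −0.33 and −0.25 with cocoa and 0.23, 0.27 and 0.14 in controls, without overlap. Its difference of −0.45 (SE 0.074, adjusted p = 0.00445) gave the lowest adjusted p among the members and held without any 1 array (0.00479 to 0.0286). RANGAP1, the GTPase activator, read −0.032, −0.17 and −0.25 with cocoa and 0.22, 0.16 and 0.032 in controls. The fall of 0.29 (SE 0.081, adjusted p = 0.0459) was near the threshold and was lost without cocoa array 2 (0.109) or 3 (0.137) and without control array 1 (0.151) or 2 (0.150). RAN had −0.031, −0.056 and −0.040 with cocoa and 0.016, 0.051 and −0.0052 in controls, a separation of groups with a difference of only −0.063 (SE 0.060, adjusted p = 0.575).

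The 5 members outside these roles did not pass. NUP62CL, a paralogue of NUP62, had −0.18 (SE 0.075, adjusted p = 0.157), and NUP210L, NUP210P1, NUP50-DT and NUP133-DT lay between −0.036 and 0.026.

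Transport genes whose names the rule does not take were read from a fixed list of 24, of which 22 were measured. Of these 7 fell, 1 rose and 14 did not pass, with a median of −0.17; in either direction 13.5% of all genes were called. ALYREF, an adaptor that couples mRNA to the export receptor, had the largest fall, 0.71 (SE 0.13, adjusted p = 0.00705). It read −0.15, −0.62 and −0.30 with cocoa, against 0.46, 0.44 and 0.15 in controls. RANBP1, which helps RANGAP1 to end the GTP-bound state of RAN, fell by 0.53 (SE 0.093, adjusted p = 0.00619), and NXT1, the partner subunit of the mRNA export receptor, by 0.45 (SE 0.091, adjusted p = 0.0115). XPOT, the exportin of transfer RNA, fell by 0.37 (SE 0.069, adjusted p = 0.00815). These 4 calls held without any 1 array. CSE1L, which returns importin alpha to the cytoplasm, RANBP3, a cofactor of XPO1, and DDX19A, a helicase of mRNA export, fell by 0.25, 0.28 and 0.24, calls held in 1, 2 and 1 of the 6 fits without 1 array. Those of CSE1L and DDX19A were lost without each array but cocoa array 1 (0.0601 to 0.113 and 0.0774 to 0.133), and that of RANBP3 without cocoa array 2 or 3 or control array 1 or 2 (0.0954 to 0.139). RANBP17, a relative of XPO7, was the gene that rose, by 0.31 (SE 0.083, adjusted p = 0.0405), with 0.34, 0.076 and 0.17 with cocoa against −0.17, −0.15 and −0.019 in controls; it held only without cocoa array 2 (0.0517 to 0.141 in the other 5 fits).

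Probe sets of a gene did not always fall to the same extent. Of the 160 member probe sets, 21 (13.1%) were called lower and 1 (0.625%) higher. Over all probe sets 3.30% were called lower and 4.68% higher, or 7.98% in either direction. The 13 called members with several probe sets had all of them below 0. In IPO5 4 of 5 probe sets were called, at −0.51 to −0.44, while the fifth was at −0.046. In NUP50 3 of 6 were called, at −0.70 to −0.49, all of the _s_at or _x_at designs, which can match more than 1 transcript, and the others ran from −0.38 to −0.18. Without those designs IPO5 kept its call and NUP50 did not (−0.22, adjusted p = 0.0704).

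NUP62 and NUP160 rested more on 1 probe set each. For NUP62 the called probe set read −0.72 and the others −0.24 and −0.029. The value of −0.72 belongs to an _s_at probe set, and without the _s_at and _x_at designs NUP62 differed by −0.029 (adjusted p = 0.917). For NUP160 the called probe set read −0.86 and the others −0.59 and −0.11, and the gene kept its call without those designs (−0.49, adjusted p = 0.00406). XPO4 lost its call there, at −0.19 (adjusted p = 0.139), where its _s_at probe set reads −0.50. RAE1 and KPNA3 lost theirs too (adjusted p = 0.0623 and 0.0677), at −0.24 and −0.22. RANGAP1 has no probe set of those designs, so its difference stayed at −0.29. Its adjusted p was 0.0614 in that fit, which held 17098 genes, and its call was lost as well. Of the genes outside the rule, RANBP3 and DDX19A were at −0.18 and −0.11 and not called. RCC1, XPO6, NUP98, NUP155, NDC1 and SEH1L have only probe sets of those designs. The only probe set called higher was 1 of 3 for KPNA5, at 0.48 (adjusted p = 0.0321 over probe sets), beside 0.32 and 0.023. RANBP2 belongs to a family with near-identical copies (RGPD genes), which can share its probe sets. Its probe set outside those designs read 0.41, and RANBP2 was called higher in the fit on such probe sets alone (adjusted p = 0.0415).

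**Figure D3:**
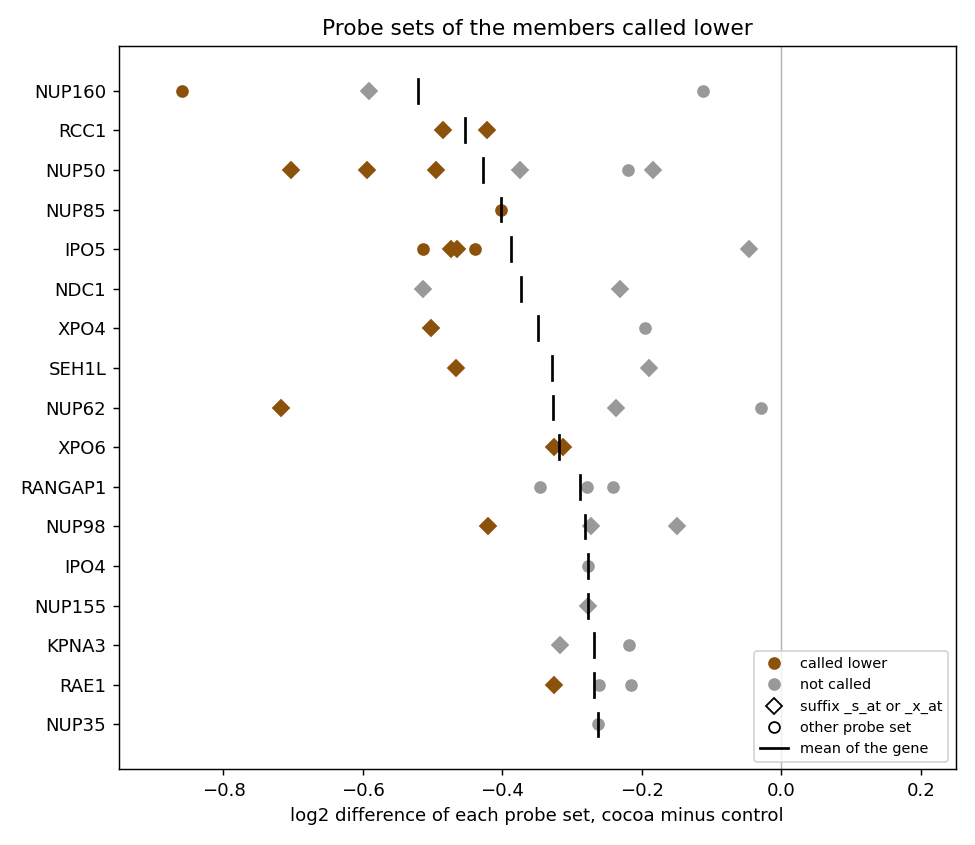
Log2 difference (cocoa minus control) of each probe set of the 17 members called lower. Circles are probe sets without, diamonds with, the suffixes _s_at or _x_at, brown marks those called lower over all probe sets, and the black bar is the mean of the gene; every probe set lies below 0, and in NUP62 they run from −0.72 to −0.029.

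The falls were not equal in the 3 cocoa cultures, and a measure of RNA composition also differed between them. The mean of the 17 called members was −0.11, −0.25 and −0.24 in cocoa arrays 1, 2 and 3, against 0.15, 0.16 and 0.13 in the controls. The centred log2 signal of the 18S ribosomal RNA control probe sets was −0.51, 3.31 and 1.40 in cocoa arrays 1, 2 and 3, and −1.12, 0.51 and −0.53 in the controls. The 5′ minus 3′ signal of the actin and GAPDH control probe sets, a sign of RNA integrity, was 0.032, −0.26 and −0.052 with cocoa and 0.028, 0.033 and 0.0090 in controls. Cocoa array 2 had the highest 18S signal and the lowest 5′ minus 3′ signal, with cocoa array 3 next to it in both. Among the controls, array 2 had both the highest 18S signal and the highest mean of the called members. With the 18S signal as a covariate 4 members were called lower, NUP160, RCC1, IPO5 and XPO6, with differences of −0.38, −0.39, −0.35 and −0.35. Without the covariate theirs were −0.52, −0.45, −0.39 and −0.32. The 13 members that lost their call with the covariate had differences from −0.34 to −0.19. Those of NUP62 (−0.33), IPO4 (−0.34), NUP35 (−0.26) and RAE1 (−0.26) were −0.33, −0.28, −0.26 and −0.27 without the covariate. In the rest of the 13 the difference was smaller in size with the covariate. Examples are NUP50 (−0.31 from −0.43), NDC1 (−0.26 from −0.37) and KPNA3 (−0.19 from −0.27). The share of all genes called lower was 1.60% with this covariate, 2.49% with the 5′ to 3′ signal and 0.951% without cocoa arrays 2 and 3. With the 5′ to 3′ signal 5 were called lower, these 4 and NUP50 (adjusted p = 0.0432), and KPNA5 was called higher (0.42, adjusted p = 0.0345). With cocoa arrays 2 and 3 left out, 0 of the 57 members were called either way by limma (12 lower and 2 higher at an unadjusted p below 0.05), and the median difference was −0.12. All 17 called members kept their sign with either covariate. Leaving those arrays out could not turn a sign, since in all 17 every cocoa array lay below every control array.

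**Figure D4:**
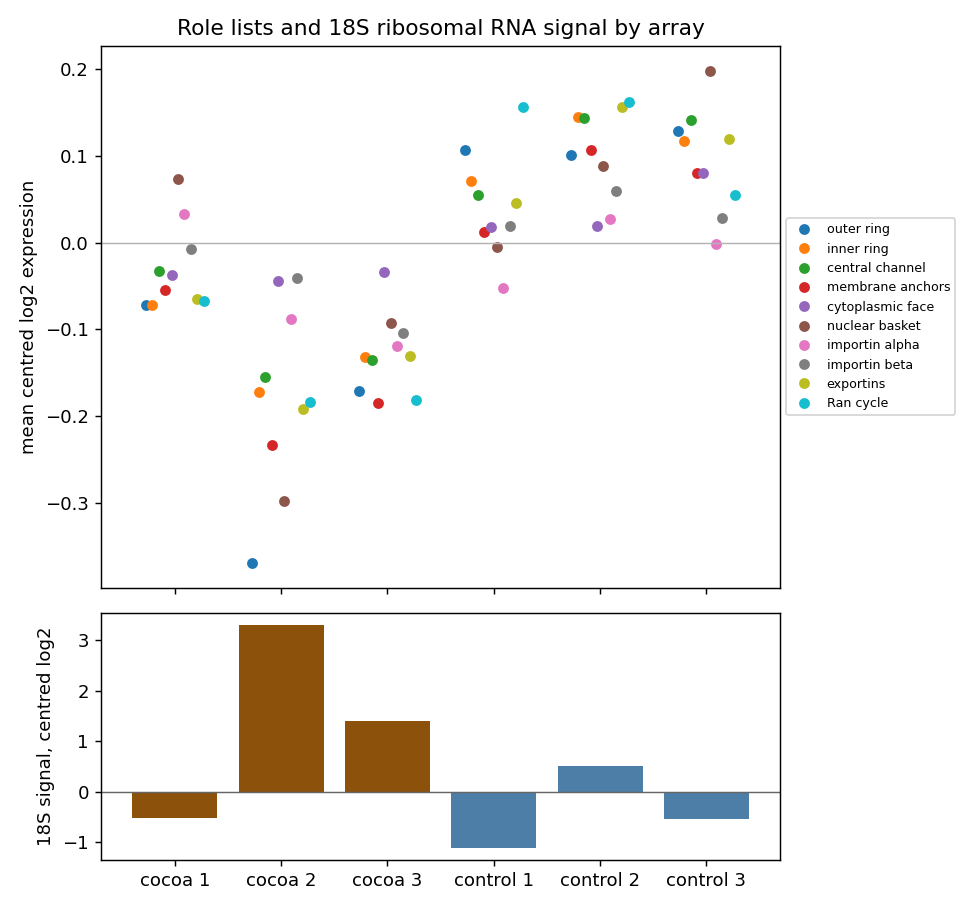
Upper panel: mean centred log2 expression of the members of each role list in every array, cocoa arrays on the left and control arrays on the right, with points spread sideways for legibility. Lower panel: centred log2 signal of the 18S control probe sets; cocoa array 2 has the highest 18S signal (3.31) and the lowest outer ring mean (−0.37).

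Markers could be checked only as differences, since the table holds no levels. Of 7 colon epithelial markers (EPCAM, KRT8, KRT18, KRT20, CDH1, CDX2 and VIL1) 0 were called, with differences from 0.017 to 0.23. Of 6 measured markers of blood, stromal and endothelial cells 0 were called, with differences from −0.040 to 0.10. At an unadjusted limma p below 0.05, 1 of the first list, KRT20 (0.23), and 0 of the second passed.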

How the data were processed

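Total RNA of 6 HT29 cultures was labelled with biotin and hybridised to Affymetrix U133 Plus 2.0 arrays, per the labels' protocols. RMA gave the deposited log2 values, per the submitters' processing notes; the series text names GeneSpring GX, and no version or filter is given in the sources used here. All 54675 probe sets are centred on their own median (at most 5.0e-07 from 0), so signal over background cannot be judged.

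The 62 control probe sets were left out. Probe sets with a single symbol in the platform annotation (41091) were averaged by gene (19775 genes); all 57 member symbols matched RefSeq by gene ID. Cocoa minus control was fitted over all genes, and separately over all probe sets, with limma 3.58.1 in R 4.3.3 (lmFit, eBayes), with Benjamini-Hochberg adjustment over the whole table and a threshold of 0.05. SE is the moderated standard error. Promoter windows came from RefSeq and were searched in Python 3.11.15 with pandas 2.3.3; matplotlib 3.10.9 drew the figures. Alternatives included array weights, other scalings, covariates for 18S and RNA integrity signals, and the removal of each array.

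Members and lists were chosen with earlier results of these data known. A rule named 27 members and 8 other genes: up to 15 called members by size in each direction, the member with the largest difference in each role list, 12 fixed genes, and up to 8 called genes of the outside list. NUP35, NUP43, NUP133, NUP205, NUP58, XPO5, IPO8, IPO9 and TNPO2 were added after their values were seen; the rest are given by value or range to account for every member.

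Replicate arrays were not copies of each other (SD of the difference between 2 arrays 0.175 to 0.215 among controls and 0.220 to 0.264 among cocoa arrays). The fit was tested on simulated data with 50 genes changed at each size. It recovered 2 of the 50 at a log2 difference of 0.25 and 37 of the 50 at 0.5. It also called 10 unchanged genes. The simulation called 147 genes in all, against 2666 in the data. With fewer changed genes the adjustment is stricter, so these recovery counts need not hold for the data. Members that did not pass can still not be taken as unchanged.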

Additional observations from a re-analysis of the deposited data

How the results depend on the processing

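The main counts were 17 members lower, 0 higher, 8 transport genes of the outside list changed and 22 member probe sets changed. Array weights, a robust prior, centring of arrays and quantile normalisation left between 15 and 19 lower members, and summarising genes by the median gave 16. The share of all genes called lower was 6.12% in the main fit, 8.13% with array weights and 5.70% to 6.03% in the other settings just named. Without 1 array it ran from 2.35% to 7.20%. Leaving out 1 array gave 5 to 18 lower members (6, 5 and 8 without control arrays 1, 2 and 3; 18, 11 and 9 without cocoa arrays 1, 2 and 3), 0 to 1 higher, 4 to 9 of the outside list and 4 to 24 probe sets. Without probe sets of the suffixes _s_at and _x_at, which leaves 48 members measured, there were 6 lower, 1 higher, 5 of the outside list and 7 probe sets. Of all genes 4.21% were called lower in that fit. With the 18S covariate the counts were 4 lower, 3 of the outside list and 2 probe sets; with the 5′ to 3′ covariate 5 lower, 1 higher, 5 of the outside list and 6 probe sets. With cocoa arrays 2 and 3 left out they were 0 lower, 1 of the outside list and 0 probe sets, in a fit that gives the single cocoa array the spread of the controls. At an adjusted p below 0.01 they were 4 lower, 3 of the outside list and 4 probe sets. The share of all genes called lower was then 1.90%, and it was 1.60% and 2.49% with the 18S and 5′ to 3′ covariates.

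With the replicate number as a block 10 members were lower, 4 genes of the outside list and 6 probe sets changed. Of all genes 4.07% were called lower in that fit. The samples share only a number: deviations from the group means of same-numbered arrays correlated at −0.12, −0.0089 and −0.0031.

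All 17 called members kept their sign wherever they were measured. Leaving arrays out could not turn it, since the groups of these 17 did not overlap. Of the 57 members 12 turned their sign in at least 1 setting, and 0 of these were called with all arrays. Besides TPR, KPNA2 and RAN they were IPO11, IPO13, KPNA6, NUP54, TNPO1, NUP210L, NUP210P1, NUP50-DT and NUP133-DT. TPR became positive without suffixed probe sets (0.25), with the median of its probe sets (0.0087), with the 18S (0.19) and 5′ to 3′ covariate (0.19), without cocoa arrays 2 and 3 (0.31), and without control array 3 (0.12), cocoa array 2 (0.13) or cocoa array 3 (0.00054). KPNA2 became negative with the 18S (−0.026) and 5′ to 3′ covariate (−0.036) and without control array 1 (−0.0032) or cocoa array 2 (−0.025), and RAN became positive without suffixed probe sets (0.055). Over the fits without 1 array TPR ran from −0.18 to 0.13 and KPNA2 from −0.025 to 0.067. The cause was not tested. A filter on dim probe sets was not possible without levels.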

Other observations

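Besides the 160 probe sets used above, 5 probe sets carry a member's symbol together with others and were left out of the gene values. None of the 5 was called by limma over all probe sets. Their log2 differences, cocoa minus control, were −0.13 for the probe set shared by IL4I1 and NUP62, −0.23, −0.12 and 0.013 for 3 shared by IPO11 and LRRC70 or their read-through transcript, and −0.17 for the one shared by RANBP2 and the RGPD genes. The first 2 named here had no overlap between cocoa and control arrays.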
